A study of Homo sapiens with 48 samples.

Results

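DG was the exposure set here against 8 other compounds read as antioxidants: 2 libraries of DG, replicates 1 and 2, against 16 libraries of AO168_O, AO_2246, BHA, BHT, BHT_CHO, BHT_COOH, DTBP and TBHQ, with 2 libraries each. These 18 libraries were chosen by their labels from the 48 of the series, and the solvent control DMSO was not the reference. All 18 came from wild-type H9 cells, a human embryonic stem cell line, grown as a monolayer in E6 medium on multiwell plates and exposed for 8 days while they differentiated. The treatment label was the compound's name with that time. The labels give no dose and neither spell out DG nor assign any compound to a family, so placing DG, AO168_O, AO_2246 and DTBP with the phenolic antioxidants is an assumption, and every difference below is between the exposures as used.

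Phenolic antioxidants such as BHT, BHA and TBHQ are added to foods and plastics, where the phenol gives up a hydrogen atom and stops radical chains. In cells, some of them are oxidised to quinones, which free the transcription factor NRF2 from its inhibitor KEAP1 and so raise detoxifying enzymes such as NQO1. E6 lacks the growth factors that keep stem cells pluripotent, and cells left in it move towards ectoderm. In the DG libraries, the summed level of 20 anterior neural ectoderm genes was 2432 and 2512 CPM (counts scaled to a common library total), against 664 and 757 CPM on day 0. Other ectoderm lists were not above day 0 in the same way: 18 surface ectoderm and placode genes summed to 1879 and 2266 CPM against 1788 and 2069 CPM, 12 neural crest genes to 204 and 217 CPM against 216 and 227 CPM, and 15 genes of young neurons to 177 and 180.5 CPM against 397 and 529 CPM. The summed level of 18 pluripotency genes was 6581 and 6211 CPM, below the 10695 and 11022 CPM of day 0 and within the 4550 to 7412 CPM of the other 16 libraries.

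The DG libraries were not alike, and DG replicate 1 stood apart from the rest of the series. It had the lowest total of the 48 libraries, 17918844 counts, where DG replicate 2 had 19557286 and the other 16 had 19149595 to 20096084. In spite of that, 17992 genes had a count in it, against 17274 in DG replicate 2 and 17066 to 17389 in the other 46 libraries. It held 123 genes with a count in no other library, where DG replicate 2 held 4 and the others 1 to 16. In a principal component analysis of the 18 libraries it took the most extreme place on the second and on the third component, which carried 13.5% and 9.39% of the variance. Levels of single genes in the 18 libraries are CPM scaled by TMM factors, and summed levels of lists are CPM without that scaling. Most single genes and list medians are therefore given with the value of each DG library, and the rest with the value of both together. The cause of the difference between the DG libraries was not tested.

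**Figure D1:**
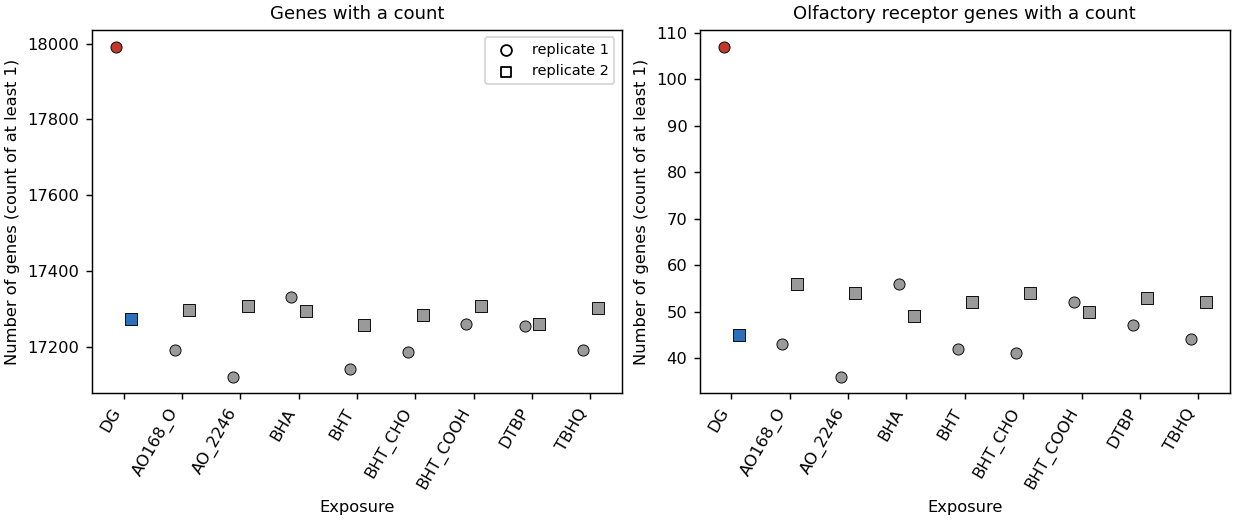
Number of genes with a count of at least 1 (left) and number of olfactory receptor genes with a count of at least 1 (right) in the 18 libraries; circles are replicate 1 and squares replicate 2 of each exposure. DG replicate 1 (red) lies above the other 17 points in both panels, at 17992 genes and 107 olfactory receptor genes, and DG replicate 2 (blue) lies among them; the vertical axes do not start at 0.

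The first comparison asked which genes DG cultures expressed at another level than cultures with the other antioxidants. By edgeR's quasi-likelihood test with Benjamini-Hochberg adjustment, 1 of 15716 genes passed an adjusted p of 0.05 (0.00636%), and it was higher in DG. It was NRSN1, which encodes neurensin, a vesicle membrane protein of neurons. NRSN1 stood at 57.2 CPM in DG replicate 1 and 1.39 CPM in DG replicate 2, and at 0.720, 0.993 and 1.65 CPM as the lowest, median and highest of the other 16 libraries. DG replicate 2 was thus inside the range of the other compounds, and the call came from DG replicate 1. The log2 fold change was 4.83 (SE 0.54, adjusted p = 0.00856, n = 2 against 16, edgeR). Without DG replicate 1 it was 0.43 with an unadjusted p of 0.295 from edgeR, and no gene passed. Without TMM scaling, NRSN1 was at 1.35 and 1.36 CPM in the solvent control, and its highest level elsewhere was 17.0 CPM in ACE replicate 2.

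At an unadjusted p under 0.05, 1360 genes differed in DG (8.65%), 709 of them higher (4.51%) and 651 lower (4.14%). The same contrast for each of the other 8 compounds, against the mean of the remaining exposures, gave 0 genes at the adjusted threshold and 155 (BHT_CHO) to 757 (BHA) genes at an unadjusted p under 0.05. DESeq2 called 9 genes for DG, 2 for AO168_O and 0 for the other 7. Without DG replicate 1, the unadjusted count for DG was 191, from a fit with 1 library of DG that cannot be set beside the counts from 2 libraries each.

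A level outside the range of all other 16 libraries in both DG replicates was found for 256 genes (1.63% of those tested), 115 above (0.732%) and 141 below (0.897%). For the other compounds, the same count ran from 40 (BHT_CHO) to 230 (BHA). None of these genes passed the adjusted threshold of the edgeR test. The 8 with the smallest p in each direction follow, as values that missed that threshold.

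Among the 8 that lay above, VENTX, a homeobox transcription factor, stood at 48.0 and 49.5 CPM in DG and at 34.2, 39.9 and 44.6 CPM as the lowest, median and highest of the other 16 libraries. Its DG values were the closest to each other of these 8 genes and stood a small step above the range. The log2 fold change of VENTX was 0.31 (95% interval 0.16 to 0.45, adjusted p = 0.417, edgeR). TMPRSS9, a membrane-bound serine protease, stood at 8.22 and 6.77 CPM in DG against 2.90 to 5.25 CPM. Its log2 fold change was 0.90 (SE 0.16, adjusted p = 0.230 by edgeR and 0.0118 by DESeq2). The solvent control had 3.15 and 6.06 CPM of TMPRSS9 without library scaling, and the higher of these lay above all 16 other antioxidant libraries.

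TEX49, a testis-expressed gene, stood at 1.36 and 1.95 CPM in DG and at 0 to 1.02 CPM in the other 16 libraries, 5 of which had no count. Without TMM scaling, TEX49 was at 0 in both solvent libraries and reached 11.4 CPM in TEP replicate 1, so it switched between 0 and a clear level elsewhere in the series too. KCNV1, a modifier subunit of potassium channels, stood at 4.90 and 2.26 CPM against 0.862 to 2.15 CPM, and GGT6, of the gamma-glutamyltransferase family, at 2.89 and 1.85 CPM against 0.801 to 1.64 CPM. For both genes DG replicate 1 was far above the range and DG replicate 2 only just above it. AP4S1, a subunit of a trans-Golgi adaptor complex, stood at 17.4 and 13.6 CPM against 9.71 to 13.2 CPM. INSYN2A, a protein of inhibitory synapses, and PLA2G4C, a cytosolic phospholipase, had 17 to 36 counts in the DG libraries.

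Among the 8 that lay below, RRM1, the large subunit of ribonucleotide reductase, which makes the building blocks of DNA, had the smallest p. RRM1 stood at 70.0 and 76.2 CPM in DG and at 84.5, 95.8 and 107.6 CPM as the lowest, median and highest of the other 16 libraries. Both DG libraries were below the lowest of the others, and the other compounds' replicates numbered 1 (84.5 to 107.6 CPM) and 2 (88.4 to 103.2 CPM) covered nearly the same range. The log2 fold change of RRM1 was -0.38 (SE 0.07, 95% interval -0.53 to -0.22, adjusted p = 0.342 by edgeR and 0.00411 by DESeq2). The value with each DG library alone was -0.44 and -0.32. The solvent control stood at 133 and 99.0 CPM without library scaling, above both DG libraries.

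IPO7, an importin that carries proteins into the nucleus, stood at 172 and 181.6 CPM in DG against 195.5, 218.1 and 273.2 CPM. Its log2 fold change was -0.34 (SE 0.08, adjusted p = 0.417 by edgeR and 0.0180 by DESeq2). ABCE1, which recycles ribosomes after translation, stood at 79.5 and 80.1 CPM against 83.7 to 117.5 CPM. NUP160, a nuclear pore subunit, stood at 74.9 and 74.4 CPM against 81.3 to 106.7 CPM. The others were RNGTT, the mRNA capping enzyme, RNF20, a histone ubiquitin ligase, CUL1, the scaffold of a ubiquitin ligase complex, and RGPD6, which has near-identical copies whose reads may be split between genes. Over the 8 genes the log2 fold changes ran from -0.77 (RGPD6) to -0.28 (RNF20). That both DG libraries lay below the other 16 in these genes, and above them in the 8 before, was set by how they were chosen and is no sign of replication.

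**Figure D2:**
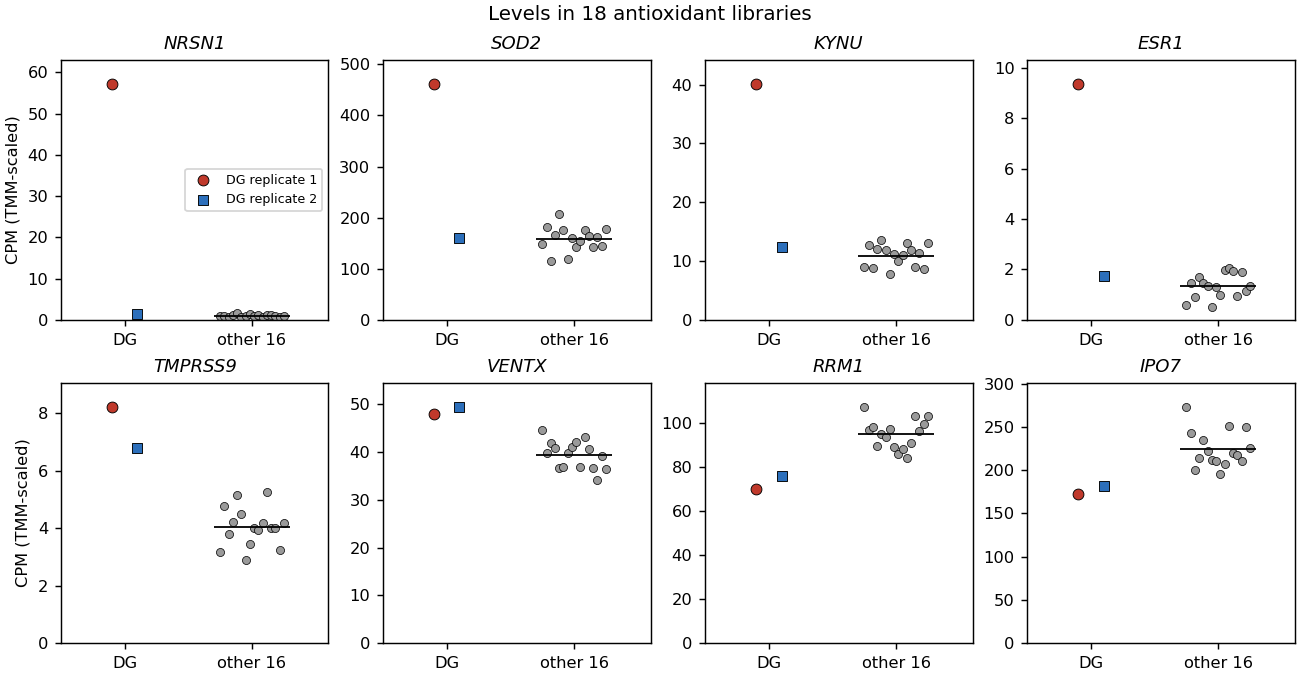
Levels of 8 genes in the 18 libraries in CPM scaled by TMM factors, with DG replicate 1 as a red circle, DG replicate 2 as a blue square, the other 16 libraries as grey circles and their mean as a line; each vertical axis starts at 0. In the upper row (NRSN1, SOD2, KYNU, ESR1) only DG replicate 1 leaves the grey range, and in the lower row both DG libraries lie above it (TMPRSS9, VENTX) or below it (RRM1, IPO7).

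DG was next set against each compound by itself. In all 8 pairs 0 of 15716 genes passed the edgeR test (0% called), and none passed with p adjusted over the 8 pairs together, where the smallest adjusted p was 0.880. At an unadjusted p under 0.05 the pairs held 414 genes (BHT_CHO) to 1464 genes (AO168_O), with 1411 for TBHQ. DESeq2 called 37 genes against AO168_O, 27 against TBHQ, 2 against AO_2246, 1 each against BHT and BHT_COOH and 0 against BHA, BHT_CHO and DTBP. The gene with the smallest p against AO168_O was PRRG3, a membrane protein with a Gla domain. It was 0.85 higher in DG on the log2 scale (SE 0.14, adjusted p = 0.405, edgeR). PRRG3 stood at 33.5 and 36.6 CPM in DG and at 17.8 and 21.1 CPM in AO168_O. The median of the other 16 libraries was 31.1 CPM, and the log2 fold change against the mean of all 8 compounds was 0.21. Against TBHQ it was PTCD1, a mitochondrial RNA-binding protein, at -0.99 (SE 0.18, adjusted p = 0.429, edgeR).

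These pairs do not show that DG acted like any of the other compounds. The 95% interval of the difference lay within 1 log2 unit of 0 for 76.8% (DTBP) to 79.3% (BHT_COOH) of genes. For the remaining genes, the interval reached a difference of 2-fold or more. NRSN1 had log2 fold changes of 4.54 (BHT) to 5.17 (TBHQ) over the pairs, with SEs of 1.075 to 1.13 and no adjusted p under 0.404 by edgeR, and each of these rested on DG replicate 1.

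The gene lists gave no call: of 32 lists of pathways, stress responses and cell types, 31 had members tested and 0 members passed in any of them. The median log2 fold change of all 15716 genes was 0.01. Of 24 NRF2 targets, 10 had a fold change above 0 and 14 below, with a median of -0.03. The median was -0.09 with DG replicate 1 alone and 0.01 with DG replicate 2 alone. NQO1, the quinone reductase named above, stood at 18.3 and 23.8 CPM in DG against 20.7, 25.5 and 35.03 CPM, and DG replicate 2 overlapped the others. TXNRD1, thioredoxin reductase, stood at 85.8 and 100.9 CPM against 105.0 to 130.4 CPM, below all 16 libraries in both replicates, and its fitted log2 value was -0.30 (SE 0.09, adjusted p = 0.417, edgeR).

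Of 9 targets of the aryl hydrocarbon receptor, 5 had a fold change above 0 and 4 below. Their median was 0.29 with DG replicate 1 alone and -0.17 with DG replicate 2 alone. At an unadjusted p under 0.05 with both DG libraries fitted, CYP1A1, CYP1A2 and SCIN were higher and NQO1 lower, and none passed the adjusted threshold. CYP1A2 stood at 2.34 CPM in DG replicate 1 and 0.667 CPM in DG replicate 2. The lowest, median and highest of the others were 0.533, 0.862 and 1.34 CPM, so only DG replicate 1 was above them. CYP1A1, an enzyme that oxidises aromatic compounds, stood at 0.762 and 0.410 CPM in DG against 0.0498 to 0.511 CPM in the others, on 14 and 8 counts. The solvent control had 0.550 and 0.470 CPM of it, without library scaling. The 6 metallothioneins tested had a median of 0.13, the 20 hypoxia and glycolysis genes one of -0.01 and the 10 heat shock genes one of -0.06. In the same order, these medians were -0.12, 0.03 and -0.09 with DG replicate 1 alone. They were 0.23, -0.02 and 0.02 with DG replicate 2 alone.

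The cell cycle lists had more members below 0 than above, where 7550 of all 15716 genes tested were below 0. Of 16 genes of the G2/M phase, 14 had a fold change below 0 with a median of -0.14, and 4 had an unadjusted p under 0.05 (TOP2A, CDK1, BUB1B and NUSAP1). The median was -0.18 with DG replicate 1 alone and -0.07 with DG replicate 2 alone. TOP2A, the topoisomerase that untangles chromosomes, stood at 335.5 and 322.7 CPM in DG against 334.4, 398.9 and 516.4 CPM, at the bottom edge of the others. Of 16 genes of the S phase, 12 were below 0 with a median of -0.07 (-0.03 with DG replicate 1 alone and -0.06 with DG replicate 2 alone). In that list, RRM1 and MCM6, a subunit of the replicative helicase, had an unadjusted p under 0.05. None of these passed the adjusted threshold, and the members of a list move together across libraries, so that the counts are not independent.

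Of 16 genes of the ATF4 response and serine synthesis, 15 were below 0 with a median of -0.11, and none had an unadjusted p under 0.05. The median was -0.10 with DG replicate 1 alone and -0.08 with DG replicate 2 alone. ASNS of that list stood at 176.7 and 152.4 CPM in DG. That lay between the medians of the others' libraries numbered 1 (283.2 CPM) and 2 (142.6 CPM). DDIT3 stood at 16.6 and 26.4 CPM in DG, against medians of 27.0 and 22.7 CPM in the same order. Of 15 p53 targets 11 were below 0 (median -0.05) and of 12 genes of the unfolded protein response 10 (median -0.05). Of 8 iron genes 7 were below 0 (median -0.08), of 22 sterol synthesis genes 14 (median -0.02) and of 10 fatty acid synthesis genes 9 (median -0.05). From p53 to fatty acid synthesis, the medians were -0.13, -0.13, -0.14, -0.09 and -0.07 with DG replicate 1 alone. They were -0.06, -0.01, -0.01, 0.01 and -0.04 with DG replicate 2 alone. In the lists of signalling targets, the medians were -0.08 for BMP, 0.08 for retinoic acid, 0.06 for WNT and 0.03 for Notch. They were -0.05 for FGF and ERK feedback and 0.02 for hyaluronan and matrix genes. In the same order, DG replicate 1 alone gave -0.21, 0.06, 0.02, -0.05, -0.36 and -0.09. DG replicate 2 alone gave 0.03, 0.04, 0.06, 0.07, 0.12 and -0.02, so the sign differed for BMP, Notch and FGF.

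Cell identity lists were similar in size. The medians were 0.06 for pluripotency, -0.08 for anterior neural ectoderm, -0.04 for surface ectoderm and placode and -0.02 for neural crest. They were -0.04 for young neurons and between -0.01 and 0.01 for fibroblast and mesenchyme. Each of these lists had 0 calls. With DG replicate 1 alone the medians were 0.03, -0.09, -0.22, -0.01, -0.12 and -0.10 in that order. With DG replicate 2 alone they were 0.08, 0.01, 0.03, -0.29, -0.004 and 0.02. Lists of scarce genes had larger medians on fewer members: 0.39 for 5 mesoderm and endoderm genes, 0.23 for 8 amnion and trophoblast genes, 0.34 for 6 liver genes, 0.51 for 7 blood and endothelium genes and 0.15 for 5 histone genes. In DG replicate 2 alone those last 5 medians were 0.34, 0.10, 0.06, 0.18 and -0.05. PECAM1, an adhesion molecule of endothelium, stood at 2.67 and 1.49 CPM against 0.518 to 1.46 CPM, on 49 and 29 counts. Of 7 genes that earlier results of these data had tied to DG (AMN, HAS2, IRX1, NINJ1, PHF6, PRRG3 and TOP2A), none passed against the other antioxidants. AMN, a protein of vitamin B12 uptake, stood at 2.83 and 3.08 CPM against 1.29, 1.94 and 2.98 CPM.

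**Figure D3:**
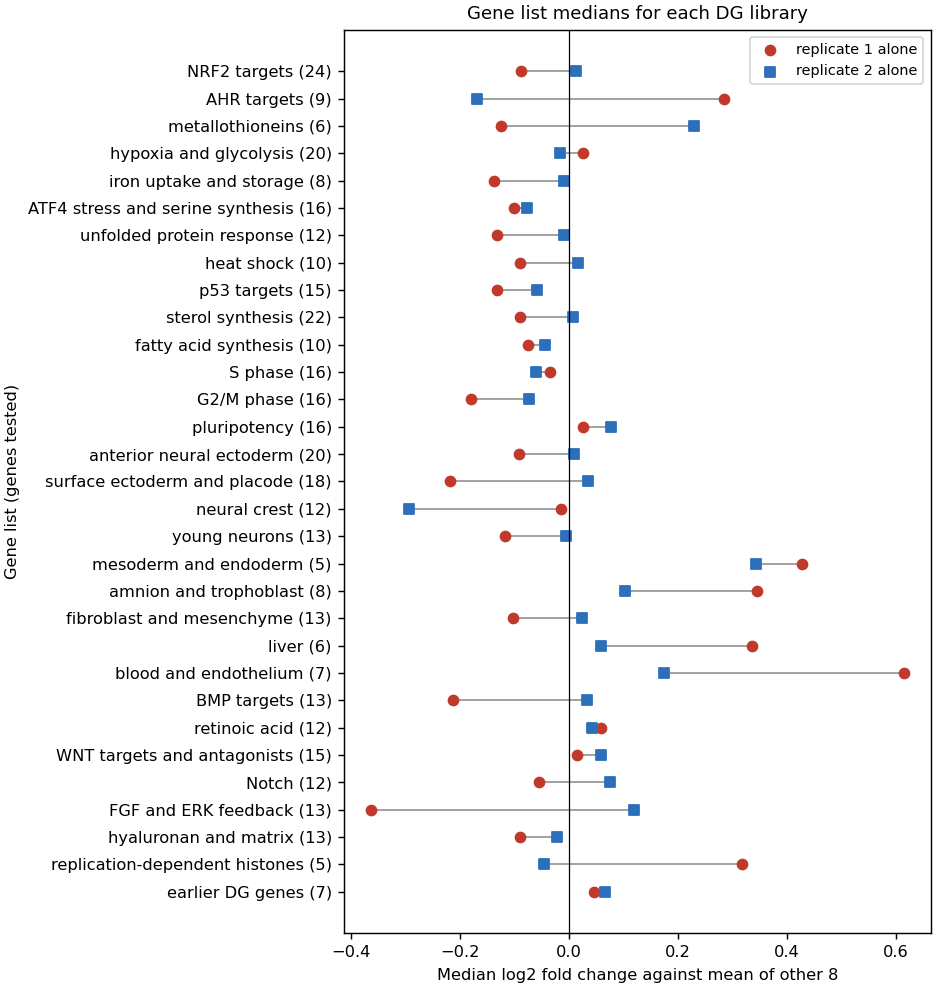
Median log2 fold change of each gene list against the mean of the other 8 compounds, computed with DG replicate 1 alone (red circles) and with DG replicate 2 alone (blue squares); the number of genes tested stands in brackets and the vertical line marks 0. Most medians lie within 0.2 of 0, and the 2 libraries are farthest apart for lists of few or scarce genes and for FGF and ERK feedback.

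The DG libraries were then taken one at a time against the mean of the other 8. With DG replicate 2 alone, 0 of 15896 genes passed (0%). With DG replicate 1 alone, 119 of 16041 genes were higher (0.742%) and 8 lower (0.0499%) at an adjusted p of 0.05 by edgeR. Such a fit assumes that a lone library varies like the replicates of the other groups, and it compares a library, not the exposure. Its filter on low counts could be met by the lone library, so genes scarce elsewhere could enter the test by being high there. The split into higher and lower genes and the largest fold changes may thus be set in part by that filter. The median log2 fold change of the 119 genes was 1.69, with a range of 0.55 to 5.83. For 109 of them DG replicate 1 was the highest of all 48 libraries. DG replicate 2 lay within the range of the other 16 for 90 of the 94 that were also measured in the 18-library fit.

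**Figure D4:**
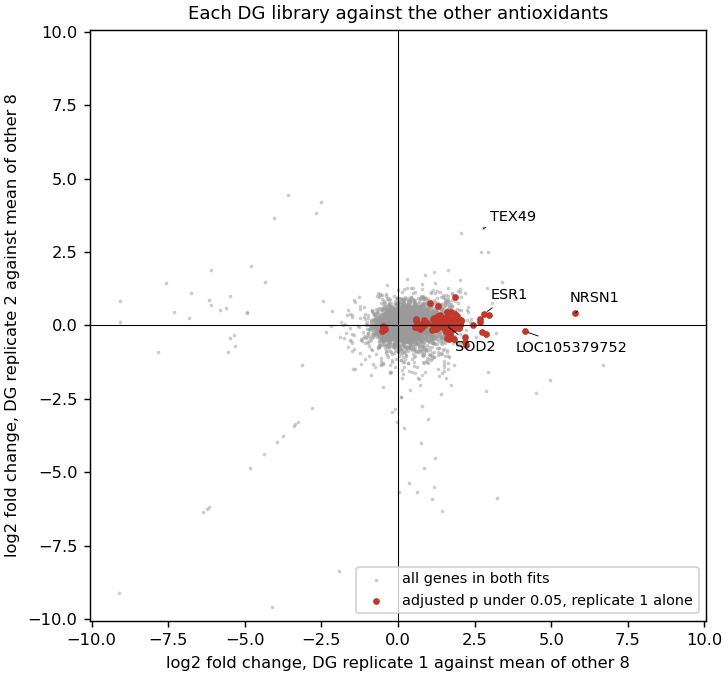
Log2 fold change of each gene against the mean of the other 8 compounds, in DG replicate 1 alone (horizontal) and DG replicate 2 alone (vertical), for genes measured in both fits; red points passed an adjusted p of 0.05 in replicate 1. The red points spread far along the horizontal axis, up to NRSN1 at 5.79, and stay near 0 on the vertical axis, where no gene passed.

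Several of these genes were abundant. SOD2, the manganese superoxide dismutase of mitochondria, stood at 462 CPM in DG replicate 1, 160.5 CPM in DG replicate 2 and 115.4, 161.5 and 207.4 CPM as the lowest, median and highest of the other 16 libraries. DG replicate 1 had 8486 counts of it, so that counting error is small beside the gap. The log2 fold change of SOD2 was 1.55 in DG replicate 1 alone (adjusted p = 0.00154, edgeR) and 0.02 in DG replicate 2 alone, and 0.98 with both (SE 0.24, adjusted p = 0.417, edgeR). Of 20 antioxidant enzyme genes, a list added after the data were seen, SOD2 was the one with a fold change near 1; 15 of the 20 were below 0 and their median was -0.06.

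KYNU, kynureninase of tryptophan breakdown, stood at 40.1 CPM in DG replicate 1 and 12.4 CPM in DG replicate 2 against 7.81, 11.3 and 13.6 CPM. Its log2 fold change was 1.88 in DG replicate 1 alone (adjusted p = 0.00155, edgeR) and 0.19 in DG replicate 2 alone. The other 7 tested genes of the kynurenine pathway, also listed after the data were seen, had no unadjusted p under 0.05, and the median of all 8 was 0.06. ESR1, oestrogen receptor alpha, stood at 9.37 CPM in DG replicate 1 and 1.74 CPM in DG replicate 2 against 0.528, 1.34 and 2.06 CPM. Its log2 fold change in DG replicate 1 alone was 2.82 (adjusted p = 0.00554, edgeR). Of 10 tested targets of that receptor, listed after the data were seen, none had an unadjusted p under 0.05, with a median of 0.12.

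ASTN2, a neuronal membrane protein of the astrotactin family, stood at 166 CPM in DG replicate 1, 61.8 CPM in DG replicate 2 and 48.1 to 70.4 CPM in the other 16 libraries. RPAP2, a phosphatase of RNA polymerase, stood at 190.8, 52.2 and 31.5 to 70.5 CPM in that order, and the zinc finger gene ZNF66 at 200.6, 56.6 and 38.2 to 77.1 CPM. In each of the 3, DG replicate 1 was over 2-fold above every other antioxidant library and DG replicate 2 was near their middle. NUGGC, a nuclear GTPase of B cells, stood at 18.5 and 3.03 CPM against 1.66 to 3.52 CPM, and NEGR1, a neuronal adhesion molecule, at 22.4 and 7.54 CPM against 5.97 to 9.04 CPM. POTEI and TCAF2, at 19.99 and 9.04 CPM in DG replicate 1, belong to families with near-identical copies and are uncertain for that reason. The uncharacterised gene LOC105379752 stood at 11.5 CPM in DG replicate 1 and 0.564 CPM in DG replicate 2, against 0.267 to 1.75 CPM.

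The 8 genes that were lower in DG replicate 1 alone moved little, with log2 fold changes of -0.52 to -0.43. They were GLO1, which clears methylglyoxal, NCOA4, the receptor that delivers ferritin to autophagy, FIG4, a phosphoinositide phosphatase, RDH11, a retinol dehydrogenase, DDX47, an RNA helicase, RAB28, a small GTPase, ARMC1 and WDR70. NCOA4 stood at 78.5 CPM in DG replicate 1 and 109.8 CPM in DG replicate 2, against 101.2, 112.1 and 125.1 CPM. DG replicate 2 lay with the others for NCOA4, and for 6 of the 8 genes it lay within their range. As examples with DG replicate 2 above the other 16 libraries and replicate 1 among them, ACTA1, skeletal muscle actin, stood at 46.5 and 105.9 CPM against 42.5 to 81.7 CPM, and DNMT3L, a cofactor of DNA methylation, at 3.98 and 7.85 CPM against 1.58 to 4.85 CPM. Neither passed in any fit of DG, and both were picked after their values were seen.

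The last description concerned genes with counts in DG replicate 1 and none in DG replicate 2. A count of at least 10 in replicate 1 with 0 in replicate 2 was found for 35 genes, and the reverse for 18. Within the other 23 groups, the same count ran from 6 to 23 over both directions. A count of 0 allows up to 3 counts, so a gene with 10 counts need not have been absent from replicate 2. Over both DG libraries the bulk of genes was close: the median absolute log2 difference of the pair was 0.146, against 0.142 to 0.234 in the other 8 compounds and 0.0833 to 0.264, with a median of 0.153, in all other 23 groups. At 2-fold or more, 379 genes were higher in DG replicate 1 and 32 in DG replicate 2, of 14462 genes with at least 1 CPM. In the other 23 groups, 31 to 307 genes were 2-fold higher in replicate 1 and 32 to 542 in replicate 2, so that large differences between replicates were not confined to DG; TBHQ had 198 and 542.

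Of the 35 genes, 25 stayed under 10 counts in all other 16 libraries, 21 did so in all other 46, and 24 were highest in DG replicate 1. ELOA3, of the elongin A family, had 32 counts in DG replicate 1 and H3C14, a histone H3 gene, had 29, and both were at 0 in every other library of the series. PRR26, listed by RefSeq as a long non-coding RNA, had 40 counts against at most 4 elsewhere, and LOC107986982 had 21 against at most 5. TSGA13, a testis gene, had 18 counts against 0 to 8 in the other 16 libraries. Histones made up 6 of the 35 (H3C14, H4C5, H1-5, H4C3, H2AC7 and H2BC6), with 11 to 29 counts each and at most 6 in any of the other 16 libraries. Of all 19253 genes, 64 were such histones. In DG replicate 2, 42 of the 64 had a count, a smaller part than the 17274 of all genes. Histones could thus enter the 35 more readily, and their number there is no result about histones.

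Other members had counts in other libraries too, and some switched between 0 and a clear count across the series. LOC102723360 had the highest count, 412, and 8 to 208 counts in the other 16 libraries. It was at 0 in DG replicate 2 but in none of these 16. LOC110384692 had 64 counts in DG replicate 1 and 0 to 77 in the others, 6 of which were at 0. CTAGE15 had 25 counts against 0 to 26, and CEMP1 had 31 against 0 to 18, with 123 in TEP replicate 1. By symbol, 21 of the 35 were histones, uncharacterised loci, read-through genes or members of families with near-identical copies, among which the counting step may move reads; 14 were not. Of the 18 genes found in DG replicate 2 only, 15 were of those kinds by symbol, led by BIVM-ERCC5 with 118 counts, POTEJ with 73 and C4A with 64. KCNE1, with 10 counts, was not counted there, although KCNE1B, with 13 counts in DG replicate 1, was among the 21. All 18 reached 10 counts in some library of the other 16.

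**Figure D5:**
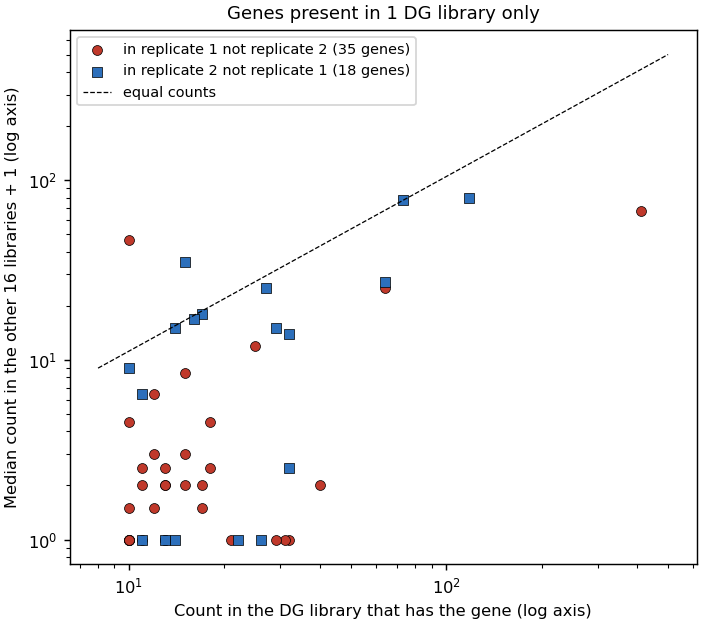
Count of each gene in the DG library that has it (horizontal, log axis) against its median count in the other 16 libraries plus 1 (vertical, log axis), for 35 genes found in DG replicate 1 only (red circles) and 18 found in DG replicate 2 only (blue squares); the dashed line marks equal counts. Most red points lie far below the line, while many blue points lie near it.

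With any count taken as detection, 975 genes were found in DG replicate 1 only and 257 in DG replicate 2 only, where the other pairs had 366 to 552 in either direction. A single count was all that 506 of the 975 had (51.9%). Of the 975, 255 were at 0 in all other 16 libraries and 123 in all other 46. The 257 held 12 and 4 such genes.

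Olfactory receptor genes, which are normally expressed in the nose, gave 74 of the 975 and 12 of the 257. They were 226 of all 19253 genes. In DG replicate 2, 45 of them had a count, against 17274 of all genes. They could thus enter the 975 more readily than most genes, and their number there is no result about these receptors. In all, 107 of 226 olfactory receptor genes had a count in DG replicate 1, against 45 in DG replicate 2 and 36 to 65 in the other 46 libraries, but they summed to just 788 counts. Histone genes, 64 of all 19253 genes, gave 17 of the 975 and 0 of the 257, and 42 of the 64 had a count in DG replicate 2. The 64 histone genes summed to 56.0 CPM in DG replicate 1, 31.9 CPM in DG replicate 2, 21.5 to 38.5 CPM in the other 16 libraries and up to 109 CPM in the whole series. The libraries with most histone RNA also include day 0, where the 17 listed histone genes summed to 23.8 and 31.5 CPM, against 13.2 CPM in DG replicate 1.

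Genes of a single exon were a like share of the genes found in either DG library only. Of 900 genes with a known exon number found in DG replicate 1 only, they made up 137 (15.2%). They were 32 of 237 found in DG replicate 2 only (13.5%) and 2.46% of the genes found in both. Each DG library had counts for a smaller part of the single-exon genes than of the genes with several exons, as given next. Single-exon genes could thus enter either set more readily, and these shares are no result about exon number. Of 746 single-exon genes, 549 had a count in DG replicate 1, 444 in DG replicate 2 and 424 to 463 in the other 46 libraries. Of 18042 genes with several exons, 17072 had a count in DG replicate 1, 16514 in DG replicate 2 and 16335 to 16610 in the others.

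Markers of other cells were looked at as whole lists. Of 18 leukocyte genes, a list added after the data were seen, 13 had a count in DG replicate 1, 11 in DG replicate 2 and 10 to 13 in the other 16 libraries. Their sum was 99.1 CPM, 103.8 CPM and 76.6 to 110.5 CPM. CD3E, CD3D, MS4A1, CD14 and GNLY were at 0 in DG replicate 1. PTPRC, the pan-leukocyte marker CD45, was at 2.23 CPM on 41 counts in DG replicate 1 and 0.770 CPM in DG replicate 2, against 0.373 to 1.18 CPM, and CD8A was at 0.708 CPM and 0.462 CPM, against 0.0516 to 0.562 CPM. Of 12 liver genes, 11 had a count in DG replicate 1, 9 in DG replicate 2 and 8 to 11 in the others, and their sum was 39.1 CPM, 28.2 CPM and 17.4 to 30.9 CPM; TF, transferrin, was most of it with 31.3 CPM in DG replicate 1. The blood and endothelium list summed to 57.6 CPM and 72.3 CPM in DG against 45.7 to 98.7 CPM. The part of these cells in the genes of DG replicate 1 was not tested. In bulk RNA, a change in the number of cells of a type and a change of RNA per cell cannot be told apart.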

How the data were processed

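The authors deposited expected counts per gene and library per the file headers, made from reads on the build GRCh38.p13 named in the submitters' processing notes. The aligner and counter were not given in the sources used here. No source says that strand was kept, so reads of a gene and of one antisense to it may be mixed. The authors' TPM were deposited beside them and used in no test. The table held 19253 genes, and 0 columns of per-sample values had no matching label. Counts were rounded, which changed 43.4% of values. In R 4.3.3, edgeR 4.0.16 (filterByExpr by group, TMM, glmQLFit, glmQLFTest, 1 coefficient per group) fitted the 18 libraries with 9 residual degrees of freedom and a common biological coefficient of variation of 14.7%. DG was set against the equal-weight mean of the other 8 coefficients, with Benjamini-Hochberg adjustment over all genes. DESeq2 1.42.0, other scalings and filters, a replicate block and fits without single libraries or compounds were alternatives. The script was tested on simulated data. The labels do not say whether replicates were separate cultures, so p-values may measure technical spread. Limits on a count of 0 cover counting error only.

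Named genes were those with adjusted p under 0.05 and both DG libraries outside the other 16; as none met this, the 8 with the smallest p in each direction that lay outside, with a mean of at least 1 CPM, were named. To these were added called or leading list members, the 10 highest of the genes found in a single DG library, and NRSN1 and other genes of single DG libraries, chosen after their values were seen. Members and lists were chosen with earlier results of these data known, and 4 lists were added after the data were seen. Exon numbers came from GENCODE through Entrez identifiers; for the 35 genes only 26 had one, so that check is void there and was made on larger sets. The mitochondrial genome list had 0 genes tested.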

Additional observations from a re-analysis of the deposited data

How the results depend on the processing

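For DG against the mean of the other 8, DESeq2 size factors, no filter on low counts, removal of on or off genes and the replicate block each kept the count at 1 gene. It was 9 with DESeq2 (7 higher, 2 lower), 8 with 2 classes, 94 when all 46 day 8 libraries were fitted, and 0 with DESeq2 without DG replicate 1. That fit, the DESeq2 counts over pairs and other compounds, the list counts and the removal of near copies were chosen after seeing the data. Leaving out a replicate gave 0 (DG replicate 1) to 127 genes (DG replicate 2); without either DTBP library, or without the compound DTBP, it was 2, as TEX49 joined NRSN1. The causes were not tested. Of the 9 genes of DESeq2, 6 were among the 127; of the 94, 65 were. Same-numbered libraries of the other 8 compounds deviated together (correlations of 0.10 to 0.53, over 0.1 in 28 of 28 pairs of compounds). For DG with these compounds the correlations were -0.10 to 0.13, over 0.1 in 1 of 8. They rest on the difference between the DG libraries, of which replicate 1 stood apart. They therefore cannot show whether the replicate numbers tie DG to the others too. Calls over the 8 pairs were 0 in the main fit and 0 without DG replicate 1, 127 without DG replicate 2, 12 in the 46-library fit and 68 with DESeq2. The other compounds had 0, and 2 with DESeq2. In the lists other than the 4 added ones, members called were 0, and 1 with DESeq2 and 1 in the 46-library fit (RRM1 in both), and 3 without DG replicate 2 (H1-5, H3C2 and NCOA4). Of the added lists, KYNU passed with DESeq2, and KYNU and SOD2 in the 46-library fit and without DG replicate 2. The 35 genes in DG replicate 1 only became 975, 110 or 8 at a count minimum of 1, 5 or 20, 58 with at most 1 count taken as not detected, and 14 without near copies and read-through genes. No named gene reversed its direction where it was called. At this depth a count of 0 allows up to 3 counts. Without DG replicate 2, the filter could be met by DG replicate 1 alone. H1-5 and H3C2, under 1 CPM in it without library scaling, could enter that fit in this way.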

Other observations

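The genes that were higher in DG replicate 1 alone were not all alike in where else they were high. Among the 119, the highest library other than DG replicate 1 was DMSO_S9 replicate 2 for 25 genes, DMSO_S9 replicate 1 for 16 and CYC replicate 2 for 14. DG replicate 1 was itself the highest of the series for 109 of the 119. Histones were among their products, at 0.725 to 1.00 CPM in DG replicate 1 without library scaling. Genes at such levels could enter that fit through DG replicate 1 alone, so their presence there is no result about histones. In the principal component analysis of the 18 libraries, replicate 2 lay above replicate 1 on the first component (27.5% of the variance) in all 8 other compounds, and below it in DG, at -0.6 against 8.77.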
